A study of Mus musculus with 11 samples.

Results

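The RNA described here came from forelimb buds of control mouse embryos at embryonic day 10.5 (E10.5), and the members are the 5 control libraries of the 11 RNA-seq libraries in the series. They were chosen by the deposited column names and the sample labels, and no other library enters any value below. Each control embryo was of genotype Gmnn +/f; Prx-Cre on a C57BL/6 background, so every library carried 1 wild-type and 1 floxed allele of Gmnn (Geminin, the inhibitor of the replication licensing factor Cdt1) together with the Prx-Cre transgene. The Prx1 (Prrx1) enhancer of that transgene drives Cre recombinase in limb bud mesenchyme, and the ectoderm, blood vessels, blood and nerves of the bud are mostly outside its domain. These embryos were the heterozygous controls of a study of Gmnn, and no embryo without the transgene was analysed here. Controls 1 and 2 came from litter A, control 3 from litter B, control 4 from litter C and control 5 from litter D. The labels name separate embryos, say that RNA with an integrity number under 8 was rejected, and do not say whether the buds of both sides were pooled or what each embryo's somite number was. Since no groups are compared, no p-value is given, and every error below is the spread between these 5 samples.

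The early forelimb bud is a pocket of mesenchyme from the lateral plate, covered by ectoderm. Fgf8 from the apical ectodermal ridge at its rim keeps the mesenchyme growing, Shh from a small posterior zone patterns it from thumb to little finger, and retinoic acid from the flank is opposed by enzymes that degrade it in the distal bud. Hox genes of the HoxA and HoxD clusters are switched on in the order of their position, so that those of the 5′ ends of the clusters come on last and most distally. Muscle precursors, endothelial cells, blood, nerve fibres and neural crest cells enter the bud from outside.

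The 5 libraries held 14777833 to 19733288 counted reads each, lowest in control 5 and highest in control 2, over 21226 to 22124 genes with at least 1 read. Levels are given as CPM, read counts relative to library totals adjusted by TMM (trimmed mean of M values), and as CPM per kb, that is CPM divided by the gene's exon length in kilobases. Only the per-kb values compare 1 gene with another. A mean of at least 1 CPM was reached by 13207 genes, which held 99.7% of the reads, and 12089 genes were at 1 CPM or more in all 5 controls. Among the 13207 genes the median level was 4.63 CPM per kb, with quartiles of 1.46 and 16.3. Protein-coding genes held 95.1% of the summed CPM, long intergenic RNAs 0.526% and antisense genes 0.215%. A small set of genes made up much of each library. The 99 genes with a mean of 1000 CPM or more held 23.2% of the summed CPM, and 2008 genes between 100 and 1000 CPM held 50.7%.

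The markers of the label were present, but not all at a level that this depth measures well. Prrx1, a homeobox gene of limb mesenchyme, was at 276, 199, 312, 271 and 212 CPM in controls 1 to 5, or 22.9 ± 4.28 CPM per kb (SD, n = 5). Tbx5, the T-box gene that marks the forelimb field, was at 96.1, 82.7, 123, 99.1 and 74.9 CPM, or 20.3 ± 3.91 CPM per kb. Meis1, a Hox cofactor of the proximal limb, was at 204, 204, 158, 165 and 200 CPM, or 17.7 ± 2.17 CPM per kb. The ranges of these 3 genes per kb overlapped, so their order is not resolved. Of the exon bases of Meis1, 18.3% are shared with another gene, where the authors' counting drops reads. Fgf8 was at 7.88, 8.08, 11.9, 16.5 and 10.1 CPM, or 8.06 ± 2.62 CPM per kb, highest in control 4. Hoxd13, the last gene of the HoxD cluster, was at 14.3, 13.8, 35.9, 13.2 and 3.14 CPM, or 6.47 ± 4.84 CPM per kb. Control 3 was above and control 5 below the other 3 for Hoxd13, which lay close together. Shh had only 14, 9, 39, 12 and 3 reads, a mean of 0.854 CPM and 0.30 CPM per kb, and it was the only one of the 6 markers under 1 CPM. For Shh too control 3 was highest and control 5 lowest.

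Genes that mark the hindlimb were low but not absent. Tbx4, the hindlimb counterpart of Tbx5, was at 2.74, 2.73, 6.09, 4.0 and 0.558 CPM, a mean of 0.948 CPM per kb. Pitx1, which gives the hindlimb its identity, had 0, 79, 1, 6 and 4 reads. Control 2 thus held nearly all Pitx1 reads of the 5 libraries. Isl1, which is made in the hindlimb field, in motor neurons and in the cardiac field, was also highest in control 2, at 11.8 CPM against 0.727 to 3.62 CPM elsewhere. In these bulk samples fewer cells of a type and less RNA per cell cannot be told apart.

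**Figure D1:**
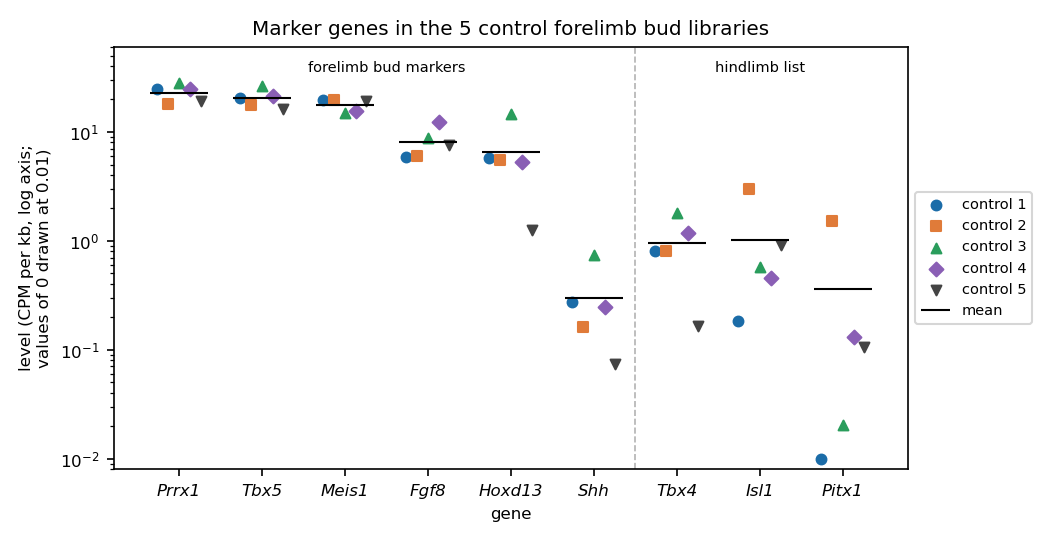
Level in CPM per kb (log axis) of the 6 forelimb bud markers and the 3 genes of the hindlimb list, with 1 point for each of the 5 control libraries and a bar at their mean. Prrx1, Tbx5 and Meis1 keep within a narrow range, Hoxd13 and Shh are highest in control 3 and lowest in control 5, and Pitx1 and Isl1 are highest in control 2.

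By CPM, that is by share of counted reads, the highest gene was Actb, cytoskeletal beta-actin, with 25123, 18904, 24872, 21566 and 10264 CPM in controls 1 to 5. Control 5 held less than any other library. The next were Tubb5 (beta-tubulin, a mean of 9752 CPM), Hbb-y (8753 CPM) and Hba-x (5724 CPM), which are globins of embryonic red cells, and mt-Cytb (5290 CPM), a mitochondrial gene. Hsp90ab1, a chaperone, followed with 5268 CPM, Ywhae, a 14-3-3 protein, with 4926 CPM and Hbb-bh1, another embryonic globin, with 4894 CPM. Gnb1, a G-protein subunit (4848 CPM), and mt-Nd1, a mitochondrial gene (4102 CPM), closed the first 10. The counts hold only reads with a mapping quality of at least 10. Genes with near-identical copies can thus rank too low, here and per kb. Actg1, gamma-actin, had a mean of 4.56 CPM, and whether it lost reads in this way was not tested.

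Division by length put the embryonic globins first. Hbb-y was at 13242 ± 5338 CPM per kb, Hbb-bh1 at 7971 ± 3680 and Hba-x at 6102 ± 2760, with Actb at 7520 ± 2273 between them. Below these were, among others, mt-Cytb (4624 CPM per kb), mt-Nd1 (4286), the ribosomal protein genes Rpl8 (3233) and Rpl4 (2463), and Tubb5 (2931). The globins were highest in control 2, where Hbb-y reached 14507 CPM against 6114 to 9740 CPM elsewhere. Among the 100 genes highest per kb, 16 code for ribosomal proteins, 6 lie in the mitochondrial genome and 3 are globins. Other members of that group of 100 are Mdk, Ldha, Crabp1, Nnat, Crabp2, Cdk4 and Rrm2, which are described below with their lists.

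To describe classes of genes, 52 lists were set up by function and cell type. Replication licensing had the highest median of all lists, 34.3 CPM per kb, followed by the cell cycle list (29.1), red blood cells (24.3), limb bud mesenchyme (20.7) and chromatin regulators (11), against 4.63 over all genes at 1 CPM or more. Lowest were genes of liver and gut (0.0874), heart (0.122), Fgf ligands (0.137) and ligands of the Bmp, Gdf and Tgf-beta families (0.151). Over the grouped lists, 267 of 377 transcription factor genes (70.8%), 89 of 153 ligand genes (58.2%), 18 of 28 secreted antagonists (64.3%) and 123 of 138 receptor and pathway genes (89.1%) reached 1 CPM. Ligands thus had the smallest share above 1 CPM and receptors the largest of these groups. Over all protein-coding genes, 11770 of 21065 reached 1 CPM, so the ligand share was close to the general one. The counts of list members given below are to be read beside that general share. The median level of all members was 0.523 CPM per kb for ligands, 1.49 for transcription factors, 1.53 for antagonists and 2.52 for receptors. Over members at 1 CPM or more only, the medians were 2.12 for ligands, 2.99 for receptors and 3.76 for transcription factors, under the 4.63 of all genes so filtered, and 5.29 for antagonists, above it. Cell cycle and licensing genes together had a median of 29.5 CPM per kb, with 58 of 62 at 1 CPM or more.

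**Figure D2:**
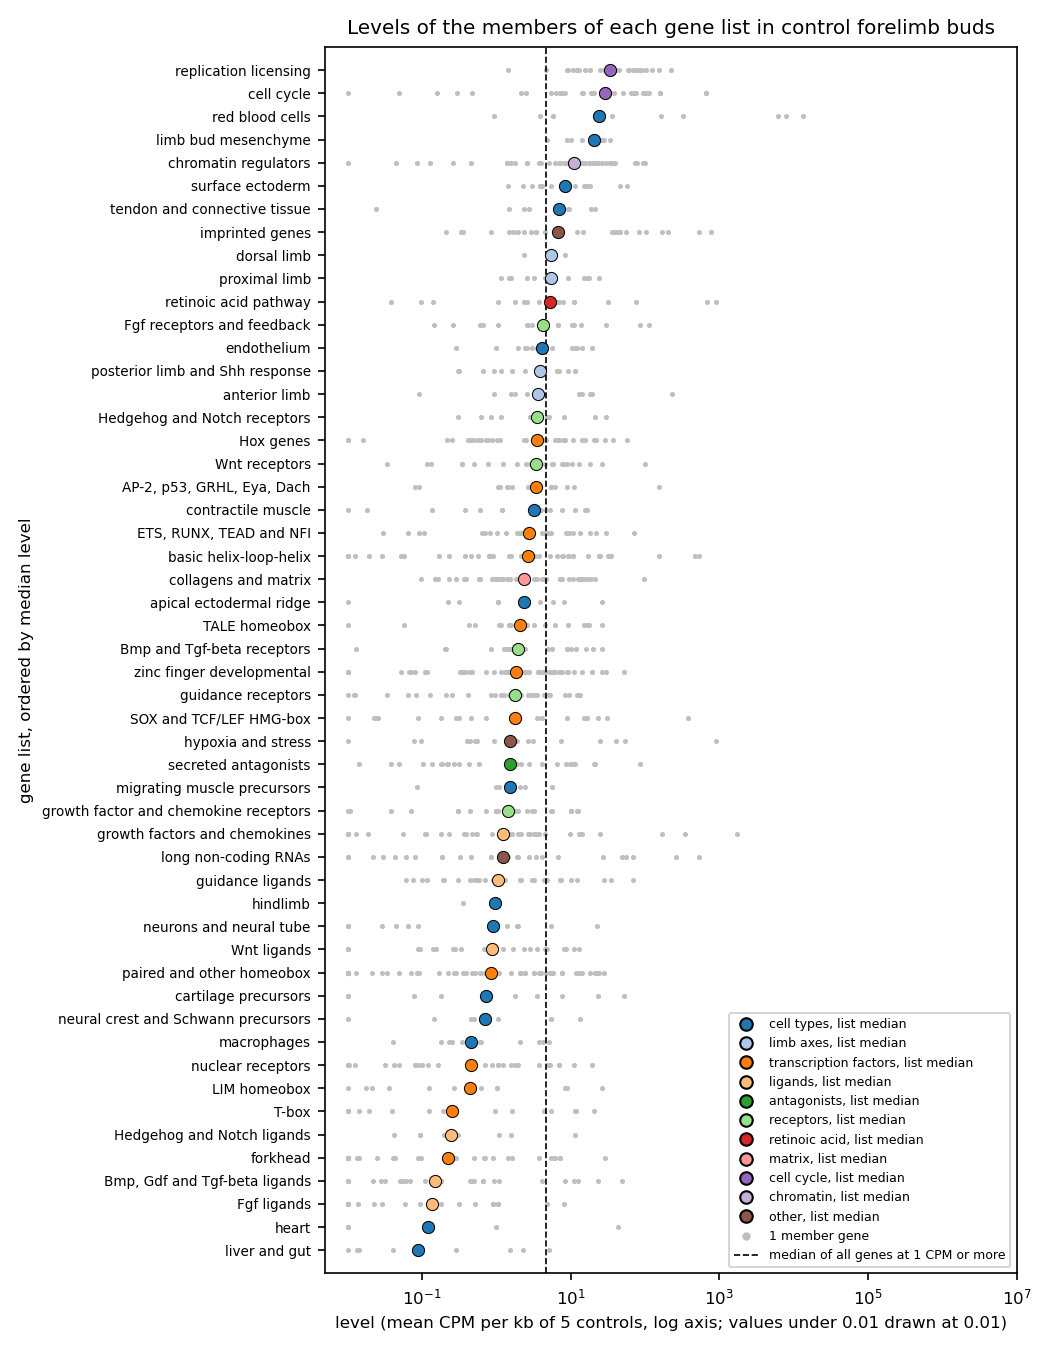
Mean level in CPM per kb (log axis) of every member of the 52 gene lists (grey points) and the median of each list (coloured by kind), with the lists ordered by median and a dashed line at the median of all genes at 1 CPM or more. Replication licensing and cell cycle genes lie at the top, and Fgf ligands, heart, liver and gut genes at the bottom.

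All 10 genes of limb bud mesenchyme were above 1 CPM, with a median of 20.7 CPM per kb. Twist1, a bHLH factor needed for bud outgrowth, was highest at 33.5 ± 6.52 CPM per kb, highest in control 5 (50.8, 49.5, 50.6, 46.8 and 72.7 CPM). Msx1, a homeobox gene that responds to Bmp, was at 28.2 ± 3.09, the LIM homeobox gene Lhx9 at 26.1 ± 3.37 and Prrx2, a relative of Prrx1, at 21 ± 2.28 CPM per kb. These 4 genes had an SD of log2 CPM of 0.25, 0.16, 0.19 and 0.16, close to the median of 0.18 over all 10082 genes at 5 CPM or more. Meox2, another homeobox gene of the list, was less even, at 36.0, 17.5, 66.7, 29.8 and 17.1 CPM, highest in control 3. The summed CPM of the list ran from 819 in control 2 to 1126 in control 3.

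Genes with known places along the limb axes were nearly all detected. Of the 12 genes on the proximal list, 12 were at 1 CPM or more, with 11 of 12 on the anterior list and 16 of 17 on the list of posterior genes and Shh response genes. Asb4, which marks anterior mesenchyme, led the anterior list at 231 ± 58.5 CPM per kb (1057, 787, 1163, 959 and 581 CPM). Gli3, the Hedgehog effector that restrains digit number, was among the steadiest, at 149, 125, 127, 148 and 141 CPM (14.4 ± 1.19 CPM per kb). Alx1, an anterior homeobox gene, and Sall4, a zinc finger factor, were both highest in control 5 and lowest in control 3. Their values were 37.5, 66.5, 28.0, 47.5 and 75.2 CPM for Alx1 and 95.9, 123, 65.0, 114 and 144 CPM for Sall4. Shox2, which shapes the upper arm, was at 99.2, 59.6, 120, 102 and 20.7 CPM, and Tbx15, a T-box gene, at 50.6, 24.5, 85.9, 46.4 and 13.2 CPM. Both were highest in control 3 and lowest in control 5. On the posterior list, Tbx3 led at 11.5 ± 2.14 CPM per kb, and Hand2, which acts upstream of Shh, was at 10.6, 17.7, 14.6, 14.3 and 15.7 CPM. Ptch1, the Shh receptor and its target, was at 26.7, 33.1, 38.3, 32.7 and 16.3 CPM, and Gli1, another target, at 8.22, 11.6, 12.3, 9.97 and 2.65 CPM. Control 5 was lowest for Shh and for these 2 targets, and it was lowest for 11 of the 16 genes of that list at 1 CPM or more, while control 3 was highest for 10 of them. Over all genes at 1 CPM or more, control 5 was lowest for 32.6% and control 3 highest for 23.6%. On the dorsal list, Lmx1b, which sets dorsal fate, was at 8.51 ± 1.59 CPM per kb and its ectodermal inducer Wnt7a at 2.33 ± 0.920.

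Hox genes encode the homeodomain factors that assign position along the body and the limb. Of 39 Hox genes in 4 clusters, 34 had a mean of 1 CPM or more. Hoxc12 had 0 reads in all 5 libraries, which allows up to 3 reads per library at a count of 0, Hoxb13 had 1 read in all and Hoxc11 had 3. Hoxa6 and Hoxd3 were also under 1 CPM, with 60 and 74 reads in all. HoxD genes held 43.7% and HoxA genes 36.0% of the summed per-kb level of the 39, against 10.6% for HoxC and 9.74% for HoxB. The highest were Hoxd10 (57.7 ± 8.99 CPM per kb), Hoxa10 (36.8 ± 18), Hoxd8 (29.1 ± 5.47), Hoxd9 (21.9 ± 10.7), Hoxa7 (20.3 ± 4.83) and Hoxc5 (15.7 ± 5.35). Hoxa10 and the HoxD genes of groups 8 to 10 thus had the highest means of the family in these buds.

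The controls differed in their Hox genes. Hoxd12 was at 16.1, 9.27, 38.7, 22.8 and 0.349 CPM in controls 1 to 5, and Hoxd11 at 19.4, 13.7, 27.4, 21.8 and 3.35 CPM. Hoxa13, the last gene of HoxA, had 14, 8, 191, 18 and 0 reads. Control 3 was highest and control 5 lowest for all 3. At the other end, Hoxb1 was at 3.07, 9.01, 1.36, 3.42 and 24.3 CPM, highest in control 5 and lowest in control 3. Among the 6 genes of paralogue groups 11 to 13 at 1 CPM or more, control 5 was below the mean log2 CPM of the other 4 controls for all 6 (median difference -2.49), and control 3 was above it for all 6 (median 1.69). Among the 11 genes of groups 1 to 4, control 5 was above for 10 (median 0.89) and control 3 below for 8 (median -0.86). Among the 10 genes of groups 5 to 8, control 5 was above for 9 and control 3 below for 9. Among the 7 genes of groups 9 to 10, control 5 was above for 5 and below for 2, Hoxa10 and Hoxc10. Control 3 was above for these 2 and below for the other 5. Of the 34 Hox genes at 1 CPM or more, control 5 was highest for 21 and lowest for 7. Control 3 was lowest for 21 and highest for 8. Over all genes at that level, control 5 was highest for 29.5% and lowest for 32.6%. Control 3 was lowest for 22.2% and highest for 23.6%. Hoxd10, the highest Hox gene, varied little by comparison, with 93.3, 99.5, 87.0, 120 and 124 CPM. The somite numbers of the single embryos are not given in the sources used here, and since litters B and D each gave 1 control, embryo and litter cannot be told apart.

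**Figure D3:**
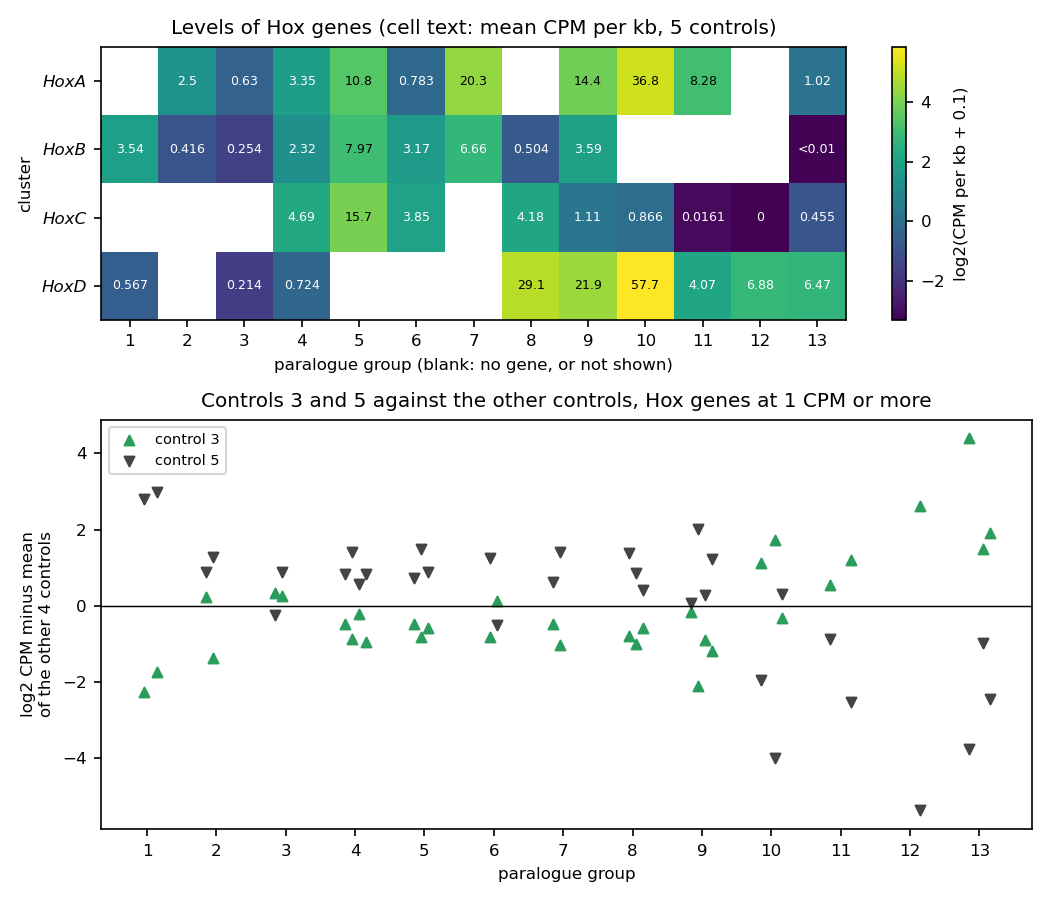
Upper panel: mean level (CPM per kb, colour on a log2 scale after adding 0.1) of the Hox genes shown, by cluster and paralogue group. Lower panel: log2 CPM of control 3 and of control 5 minus the mean of the other 4 controls, with 1 point per gene shown at 1 CPM or more. Control 5 is below and control 3 above the other controls for groups 11 to 13, and mostly the reverse for groups 1 to 8.

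On the transcription factor lists other than that of the Hox genes, the genes with the highest levels were not specific to the limb. Factors outside these lists were not ranked. Id3, Id2 and Id1, which block bHLH factors and respond to Bmp, were at 528 ± 81.9, 470 ± 61.1 and 154 ± 13.2 CPM per kb. Sox11, an HMG-box factor of progenitor cells, was at 381 ± 110 CPM per kb (3724, 2829, 4101, 3412 and 1751 CPM, lowest in control 5). Trp53, which encodes p53, was at 153 ± 7.70 CPM per kb and Tead2, a DNA-binding partner of the Hippo effector Yap, at 70.8 ± 2.58. Tead2 was among the most even of the named factors, at 254, 241, 238, 230 and 244 CPM. Snai1 (51.5 ± 9.19 CPM per kb), a zinc finger repressor, led its list, Foxn3 (28.6) led the forkhead genes, Tgif1 (26.3) the TALE homeobox genes and Nr2f2 (19.6) the nuclear receptors. By family, 37 of 61 paired and other homeobox genes, 30 of 42 bHLH genes, 16 of 23 HMG-box genes, 13 of 32 forkhead genes, 8 of 17 T-box genes and 7 of 12 LIM homeobox genes reached 1 CPM. Forkhead genes had the lowest median of these families, 0.226 CPM per kb.

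The secreted signals were led by growth factors of broad use. Mdk (midkine), a heparin-binding growth factor, was at 2249, 2099, 1843, 2136 and 3060 CPM, or 1720 ± 349 CPM per kb. Ptn (pleiotrophin), its relative, was at 340 ± 50.7 CPM per kb, lowest in control 3 and highest in control 1. Igf2, the fetal insulin-like growth factor, was nearly equal in all 5 libraries at 972, 977, 945, 930 and 966 CPM, an SD of log2 CPM of 0.03. Reads over the 64.5% of Igf2 exon bases shared with another gene are left out of that count. The membrane-bound guidance ligand Efna5 was at 69.4 ± 6.99 CPM per kb.

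Among the Fgf, Bmp, Wnt, Hedgehog and Notch ligands, Bmp4 had the highest level of a single gene, although the median of its family was among the lowest. It was at 88.1, 109, 107, 121 and 119 CPM, or 48.8 ± 5.84 CPM per kb, Gdf11, which bears on Hox gene timing in the trunk, was at 23.3 ± 6.30, and Bmp7 at 12.7 ± 1.4 CPM per kb. Of the 32 genes of the family, 19 were under 1 CPM. Wnt5a, which guides outgrowth of the mesenchyme, was at 87.9, 70.9, 167, 119 and 68.0 CPM, highest in control 3. It led the 23 genes of its list, 9 of which were under 1 CPM. Wnt3, the ectodermal Wnt that induces the ridge, was at 18.8, 16.0, 33.3, 37.0 and 18 CPM. Wnt2 differed far more, at 11.2, 44.9, 1.36, 19 and 21.6 CPM, lowest in control 3.

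Of 22 Fgf ligands only 6 reached 1 CPM. After Fgf8 came Fgf10, the mesenchymal signal to the ridge, at 22.1, 23.1, 18.1, 21.9 and 23.6 CPM (4.73 ± 0.476 CPM per kb). Fgf10 was even between controls, while the ridge ligand Fgf9 was at 1.79, 4.68, 10.01, 3.19 and 3.07 CPM, highest in control 3. Fgf17, another ridge ligand, was at 1.04 ± 0.286 CPM per kb. Fgf4, the ridge ligand that depends on Shh, had 9, 5, 42, 32 and 1 reads, and as for Shh and Hoxd13 control 5 was lowest and control 3 highest. Among the Notch ligands, Jag1 was at 57.6, 55.1, 126, 66.9 and 25.2 CPM, again highest in control 3 and lowest in control 5.

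Receptors and intracellular parts of the same pathways were present at more even levels than ligands, antagonists and transcription factors. The median SD of log2 CPM of the members at 1 CPM or more was 0.27 for receptor genes, against 0.41 for ligands, 0.53 for antagonists and 0.44 for transcription factors. Spread was larger at low levels, and the medians lay closer together at 5 CPM or more. There they were 0.23 for receptors, 0.32 for ligands, 0.38 for antagonists and 0.34 for transcription factors. Each was above the 0.18 of all genes at 5 CPM or more. Dusp6, a phosphatase induced by Fgf signalling, was at 114 ± 16.1 CPM per kb and Ctnnb1, beta-catenin, at 98.6 ± 12.9. Fgfr1, the main Fgf receptor of the mesenchyme, was at 107, 83.1, 104, 89.2 and 67.7 CPM (11.1 ± 1.98 CPM per kb). Acvr2b, an activin receptor, was at 26.5 ± 2.41 and Smo, the Hedgehog transducer, at 8.11 ± 0.524 CPM per kb. Exceptions to this evenness were Spry2, an inhibitor of Fgf signalling (224, 132, 276, 209 and 64.1 CPM), and Notch2 (340, 178, 321, 233 and 70.4 CPM). Both were lowest in control 5. Gas1, a Shh co-receptor, was even at 92.5, 77.4, 92.5, 82.0 and 94.5 CPM.

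Of the secreted antagonists, Fstl1, a follistatin-like protein, was highest at 85.6 ± 8.73 CPM per kb. The Wnt antagonists Sfrp1 (20.9 ± 5.02), Frzb (20.9 ± 5.17) and Dkk1 (11.3 ± 2.73) followed, and their ranges overlapped. Grem1, the Bmp antagonist that links Shh to the ridge, was at 19.9, 14.9, 19.1, 18.9 and 11.6 CPM, or 4.07 ± 0.848 CPM per kb. Bmp4, which Grem1 binds, was at a higher level per kb than Grem1 in all 5 controls.

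Retinoic acid binding proteins were among the most abundant messages of the bud. Crabp1 was at 618, 764, 423, 740 and 1025 CPM (890 ± 275 CPM per kb) and Crabp2 at 897, 759, 913, 913 and 975 CPM (674 ± 60.1). Dhrs3, a retinaldehyde reductase, was at 31.8 ± 7.76 CPM per kb. The enzymes at the ends of the pathway differed more between embryos. Aldh1a2, which makes retinoic acid, was at 15.8, 26.5, 2.72, 12.3 and 33.2 CPM. Cyp26b1, which degrades it in the distal bud, was at 33.3, 17.7, 70.6, 36.0 and 16.8 CPM. Control 3 was lowest for the first and highest for the second, and control 5 was highest for the first and lowest for the second.

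Proliferation genes were high, and their spread was low, as it was for most genes of like level. All 26 licensing genes were above 1 CPM with a median SD of log2 CPM of 0.11, and the summed CPM of the list ran from 4460 in control 5 to 4634 in control 1. The median level of this list was 106 CPM, and all genes of 100 to 1000 CPM had a median SD of 0.14. For the cell cycle list, with a median of 79.1 CPM, it was 0.16, the same as for all genes of 20 to 100 CPM. Orc6, an origin recognition subunit, was at 220 ± 15.6 CPM per kb, and the helicase subunit Mcm5 at 155 ± 4.34 (554, 518, 518, 531 and 535 CPM). Gmnn itself was at 150, 199, 139, 170 and 238 CPM (122 ± 27.2 CPM per kb), highest in control 5 and lowest in control 3. Its SD of log2 CPM, 0.31, was well above the 0.11 of its list. These embryos carried 1 wild-type and 1 floxed Gmnn allele with Prx-Cre. How far Cre had recombined the floxed allele in the bud was not measured here. Among cell cycle genes, Cdk4, a G1 kinase, was at 667 ± 71.0 and Rrm2, a subunit of ribonucleotide reductase, at 654 ± 34.8 CPM per kb. Tyms, thymidylate synthase, had 555, 574, 585, 582 and 579 CPM, an SD of log2 CPM of 0.03. Of 46 chromatin regulators, 42 were above 1 CPM, led by Actl6a (101 ± 2.86 CPM per kb), a subunit of chromatin remodelling complexes, and by Hmga1 (93.6 ± 26.2) and Hmga2 (77.8 ± 9.35), which are high in embryonic cells. Lin28a, an RNA-binding protein of early embryonic cells, was at 34.5, 69.1, 11.6, 51.0 and 120 CPM, again with controls 3 and 5 at opposite ends.

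Of 29 imprinted genes, 28 were at 1 CPM or more, with a median of 6.76 CPM per kb. Nnat was at 763 ± 95.3, the non-coding RNA H19 at 536 ± 40.6 and Mest at 201 ± 80.9 CPM per kb. Mest stood apart in 1 library, with 1354 CPM in control 1 against 587 to 733 CPM in the other 4. Among long non-coding RNAs, Gas5 (259 ± 42.0 CPM per kb) and Malat1 (68.4 ± 7.36) followed H19, and 11 of 30 were under 1 CPM. Matrix genes were modest except Sparc, a collagen-binding glycoprotein, at 288, 481, 233, 299 and 324 CPM (96.5 ± 27.7 CPM per kb). Fn1, fibronectin, was at 17 ± 2.39 CPM per kb. Col1a1, the main collagen of bone and skin, was at 116, 259, 83.8, 111 and 52.6 CPM. Control 2 was highest for both Sparc and Col1a1.

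Transcripts of the other cell types of the bud were measured in all libraries. For the ridge, Sp8, a zinc finger gene of its ectoderm, was at 68.1, 113, 125, 168 and 123 CPM, and the summed CPM of the ridge list ran from 116 in control 1 to 273 in control 4. Surface ectoderm had all 14 genes above 1 CPM and a sum of 272 CPM in control 1, 484 in control 4 and 414 to 442 in the other 3. Control 1 was lowest for 9 of these 14 genes, against 17.5% of all genes at 1 CPM or more, among them Krt18 (46.2, 131, 57.8, 79.6 and 90.5 CPM), a keratin. Endothelial genes summed to 268 to 416 CPM, with all 14 above 1 CPM and Egfl7 highest (19.2 ± 5.02 CPM per kb). For muscle precursors, Pax3 was at 40.4, 35.8, 25.2, 27.4 and 43.3 CPM and Lbx1, which marks those that migrate, at 3.97, 2.37, 1.47, 2.38 and 3.35 CPM.

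Some cell type lists differed strongly between controls. Red blood cell genes summed to 14102, 33732, 13118, 15946 and 22801 CPM, and 12 of 13 were highest in control 2, as were 14.6% of all genes at 1 CPM or more. Macrophage genes summed to 26.3, 16.1, 46.7, 30.0 and 8.16 CPM, with 6 of 13 under 1 CPM on average. C1qb, a complement gene of macrophages, was at 7.04, 2.06, 9.95, 7.65 and 1.46 CPM. Contractile muscle genes summed to 139, 292, 86.4, 88.3 and 210 CPM. Of the 13 at 1 CPM or more, 11 had an SD of log2 CPM over 1. Over all genes at that level, 267 of 13207 did. The heart list summed to 6.43, 115, 3.15, 6.26 and 10.9 CPM, and Myl7, the atrial myosin light chain, held 107 of the 115 CPM in control 2 and 1.58 of the 3.15 CPM in control 3. Nppa, the atrial peptide, had 0 reads in all libraries and Nkx2-5, the cardiac homeobox gene, had 1 read in control 2. Genes of liver and gut summed to 4.86, 20.4, 54.8, 2.55 and 5.58 CPM. Of these, Alb, albumin, had 1, 6, 2, 0 and 0 reads. Genes of neural crest and Schwann precursors summed to 144 to 209 CPM, with 7 of 10 at 1 CPM or more. That sum rests mostly on its highest members. Control 5 had the lowest sum, though its members at 1 CPM or more were above the other controls by a median of 0.56 on the log2 scale. Genes of neurons and neural tube summed to 115 to 136 CPM, with 8 of 15 at 1 CPM or more. Some single members of these lists were low. Sox10, which marks neural crest, had 8, 23, 36, 0 and 37 reads, and Sox1 and Sox2, of the neural tube, had 1 and 17 reads in all.

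Over all genes the 5 libraries were close. At 5 CPM or more, the median SD of log2 CPM was 0.18, where counting noise alone gives 0.06, and the common biological coefficient of variation (BCV, the relative spread between samples beyond counting) was 18.7%. The median SD was 0.42 for genes of 1 to 5 CPM, 0.23 from 5 to 20, 0.16 from 20 to 100, 0.14 from 100 to 1000 and 0.17 above. The spread thus flattened with level and did not shrink further for the most abundant genes, among which are Actb and the globins. Of the 10082 genes at 5 CPM or more, 81 (0.803%) had an SD over 1, and 5 of these were Xist or Y-linked genes. Xist had 1157 and 1193 reads in controls 2 and 4 and at most 8 in the others, where 4 Y-linked genes together had 1720 to 2716 reads. Without control 5 the number was 49, without control 3 it was 53, and without each of the others it was 95 to 114.

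By the SD of the log2 difference between 2 libraries, the pair most alike was controls 2 and 4 (0.30) and the pair least alike controls 3 and 5 (0.58). Controls 1 and 3 were nearly as alike (0.31). By the median absolute log2 difference, controls 1 and 3 and controls 2 and 4 were level, at 0.14 for each pair. The litter-mates, controls 1 and 2, ranked 5 among the 10 pairs by SD (0.38). Xist and Y-linked genes were among the genes compared. Controls 2 and 4 shared high Xist counts, while the litter-mates differed in Xist. Of the 81 genes with an SD over 1, 31 were highest in control 3 and lowest in control 5, 15 were the reverse, and 13 were highest in control 2 and lowest in control 3.

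Sequence content moved with 1 library. In genes whose transcripts hold a run of 26 or more T, control 5 was below the other controls by a median of -0.56 on the log2 scale (140 genes), against 0.14 in genes with no run over 5 (2034 genes). For such long runs the other controls were at 0.22, -0.02, 0.19 and 0.13. Among the genes named above, Actb (a run of 29), Gnb1 (28), Tubb5 (26), Spry2 (38) and Sox11 (25, just under that class) have long T runs and were lowest in control 5. These are examples. The licensing, cell cycle and chromatin lists each hold 1 gene with a run over 25 as well. The examples thus do not give the share of long-run genes that were lowest in control 5. In the 6 Hox genes of groups 11 to 13 at 1 CPM or more, the longest run was from 6 bases (Hoxa11 and Hoxd12) to 18 (Hoxd11). Control 5 also had the fewest reads and the largest share of ribosomal protein genes (4.97% of counts against 3.69 to 4.21%). The part of these features in the values of control 5 was not tested.

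The genes with the largest spread fall into a few patterns of controls. In control 2, Myl7 was at 107 CPM against 1.58 to 9.27 elsewhere, Hand1, a bHLH factor of the heart and flank, at 70.9 against 1.41 to 11.6, and Acta2, smooth muscle actin, at 165 against 5.98 to 20.8. The matrix genes Postn (101 against 3.21 to 26.8 CPM), Dcn (27.8 against 0.335 to 5.56) and Lum (107 against 2.02 to 22.7) were also highest there. Control 2 thus held the most of a set that also includes the globins, Col1a1, Isl1 and Pitx1. Its summed heart list was 115 CPM, with Nppa at 0, and its red cell list was the highest of the 5. Whether tissue next to the bud was carried along was not tested.

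In control 3, Afp, alpha-fetoprotein of liver and yolk sac, was at 29.2 CPM against 9.06 in control 2 and 0.0697 to 0.335 in the rest, and Apoa1, an apolipoprotein, was at 18.3 against 1.62 to 5.51. Pmaip1, a p53 target that promotes cell death (Noxa), was at 33.5, 7.82, 108, 22.9 and 2.37 CPM. Osr2, a zinc finger gene of limb connective tissue, was at 15.4, 2.83, 31.4, 9.27 and 1.60 CPM. For Pmaip1 and Osr2 the order of the controls is that of Hoxd12 in its extremes, with control 3 highest and control 5 lowest. Upk3b, a gene of mesothelium, and Wnt2 were lowest in control 3, Upk3b at 12.6, 38.9, 1.58, 16.3 and 24.7 CPM. The muscle genes Tnni1 (29.0, 145, 5.60, 39.6 and 57.4 CPM) and Myl4 (2.29, 20.1, 0.272, 2.67 and 1.95 CPM) were also lowest there and highest in control 2.

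In control 5, skeletal alpha-actin Acta1 was at 25.9 CPM against 0.521 to 4.75 elsewhere. Wfikkn1, a secreted inhibitor of Gdf11 and myostatin, was at 26.2 CPM against 0.924 to 11.4, Etv2, a factor of blood vessel progenitors, at 16.2 against 2.23 to 4.0, and Dqx1 at 66.7 against 8.43 to 20.7. In control 1, the highest deviations were those of Hist1h2ae, Mrps34, Myog, Cox5a and H2afx. Myog, the muscle differentiation factor, was at 18.1, 5.87, 4.02, 1.27 and 10.3 CPM. Cox5a, a subunit of cytochrome oxidase, was at 227 CPM in control 1 against 35.9 to 124 elsewhere, and H2afx, a histone variant, at 193 against 45.8 to 94.0. Mrps34 shares 77.8% of its exon bases with another gene, so its count rests on a small part of it. Actc1, cardiac alpha-actin, was lowest in control 4 (17.4, 41.0, 2.34, 1.68 and 29.9 CPM), where Pou4f1, a sensory neuron factor, was highest (17.1, 14.5, 11, 30.4 and 7.81 CPM).

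**Figure D4:**
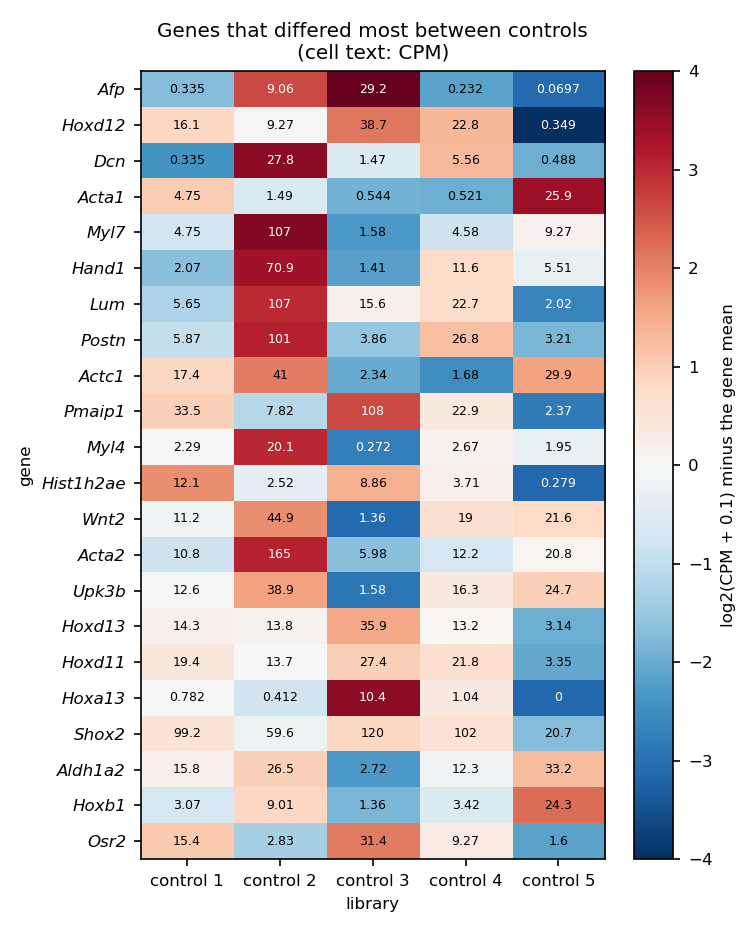
Colour: log2(CPM + 0.1) minus the gene's mean over the 5 controls, with the CPM printed in each cell, for the 15 genes with the largest spread (top) and 7 further genes of the text. Control 2 is high for Myl7, Hand1, Postn and Acta2, control 3 for Afp, Pmaip1 and the distal Hox genes, and control 5 is low for the distal Hox genes and high for Acta1 and Hoxb1.

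Promoter sequences are shown for 5 of these genes, 3 actin and myosin genes with a large spread, the globin Hba-x and Hoxd13. RefSeq entries were read for 9 genes, and these 5 were chosen because they hold a motif searched for here, so they are not typical. The other 4, Hbb-y, Hoxd12, Prrx1 and Meis1, held neither motif in this window and are not printed. Each runs from 250 bases before to 50 bases after the RefSeq start (GRCm38.p6), 5′ to 3′ on the gene's strand. Capitals mark TATAAA and the CArG box, the motif that serum response factor binds in muscle genes, searched on both strands. In Hoxd13 the capitals are 2 overlapping matches, 1 on each strand. TATAAA lay 28 bases before the start in Hba-x, 7 in Acta1, and 124 and 126 in Hoxd13. In Actc1 it lay past the start, at -33 on the same scale.
Acta1 (chr8:123894726-123895025, minus strand): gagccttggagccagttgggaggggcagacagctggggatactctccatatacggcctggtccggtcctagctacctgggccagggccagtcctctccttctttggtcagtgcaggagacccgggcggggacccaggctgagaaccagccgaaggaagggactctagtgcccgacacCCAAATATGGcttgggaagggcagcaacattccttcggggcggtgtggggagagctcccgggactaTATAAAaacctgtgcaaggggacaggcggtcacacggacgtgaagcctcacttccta
Actc1 (chr2:114052826-114053125, minus strand): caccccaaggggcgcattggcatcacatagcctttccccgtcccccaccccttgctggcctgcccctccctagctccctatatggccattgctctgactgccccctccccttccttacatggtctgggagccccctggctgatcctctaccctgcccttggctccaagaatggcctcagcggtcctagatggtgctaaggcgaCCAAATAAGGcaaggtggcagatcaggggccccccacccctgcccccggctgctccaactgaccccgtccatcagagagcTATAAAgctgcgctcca
Myl7 (chr11:5898733-5899032, minus strand): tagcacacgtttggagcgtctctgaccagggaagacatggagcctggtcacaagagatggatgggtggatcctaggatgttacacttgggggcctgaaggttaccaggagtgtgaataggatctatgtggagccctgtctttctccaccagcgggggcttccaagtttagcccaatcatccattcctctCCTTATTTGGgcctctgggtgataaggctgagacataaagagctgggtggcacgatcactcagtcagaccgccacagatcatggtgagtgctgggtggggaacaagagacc
Hba-x (chr11:32276350-32276649, plus strand): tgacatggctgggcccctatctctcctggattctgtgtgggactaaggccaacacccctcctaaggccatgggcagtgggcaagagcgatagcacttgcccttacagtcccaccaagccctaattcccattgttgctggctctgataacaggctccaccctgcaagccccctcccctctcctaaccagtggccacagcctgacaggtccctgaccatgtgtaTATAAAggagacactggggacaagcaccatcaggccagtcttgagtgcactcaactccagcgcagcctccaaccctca
Hoxd13 (chr2:74667975-74668274, plus strand): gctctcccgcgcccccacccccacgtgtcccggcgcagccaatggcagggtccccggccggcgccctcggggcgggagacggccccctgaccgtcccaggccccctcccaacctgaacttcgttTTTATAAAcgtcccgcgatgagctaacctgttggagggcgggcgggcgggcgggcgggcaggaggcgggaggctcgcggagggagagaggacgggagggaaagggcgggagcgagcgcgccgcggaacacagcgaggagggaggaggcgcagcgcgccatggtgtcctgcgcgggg

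TATAAA, in either orientation, was found in 13.6% of the 32851 promoters searched and the CArG box in 1.63%. Counted by gene, 621 of the 7753 genes at 5 CPM or more with a promoter in the RefSeq table held TATAAA (8.01%) and 126 the CArG box (1.63%). Of the 81 genes with an SD over 1, 52 had a promoter there, and 15 of them held TATAAA (28.8%) and 5 the CArG box (9.62%). Among the 100 genes highest per kb, 64 had a promoter there and 7 of these held TATAAA (10.9%). In the contractile muscle list the counts were 5 of 13 for TATAAA and 2 of 13 for the CArG box, and in the Hox list 4 of 20 and 0 of 20. These shares were not tested against each other, and they describe letters in a window of 300 bases, and the matches are not sites of measured binding. Promoters of Tbx5, Fgf8, Shh, Actb and Hbb-bh1 are not shown.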

How the data were processed

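Total RNA depleted of ribosomal RNA was sequenced from forelimb buds of 5 control embryos, and the 5 control columns of the deposited table were used. Its values are raw counts of reads per gene, which per the file headers the authors made with featureCounts 1.4.6-p4 on mm10 with GENCODE M9, a mapping quality of at least 10 and genes joined by name. STAR 2.5.4b is named in the submitters' processing notes. The stated call did not use strand and left out reads over exons of 2 genes, so values of overlapping genes are too low or uncertain, and reads of near-identical genes, such as globin copies, can be split or lost.

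Counts were scaled by TMM in edgeR 4.0.16 (R 4.3.3) to CPM and divided by the exon length of the table to CPM per kb. Spread is the SD of log2 CPM with a prior count of 2, and the BCV is edgeR's common dispersion with an intercept only. The scripts were tested on simulated data. GENCODE M21 gave gene types, exon overlap and T runs, with 45224 of 47517 names matched (2.97% of control counts unmatched). Library totals of 14777833 to 19733288 reads limit precision for genes under 1 CPM. Counting limits cover counting error only.

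The members and lists were chosen with earlier results of these data known. Named genes are the 6 markers, up to 6 highest per kb in each list, the 10 highest by either scale, the 15 of largest spread and the 5 furthest above and below in each control. Xist, Y-linked, predicted and date-like names are left out of the last 2. Aldh1a2, Cyp26b1, Fgf4, Gli1, Grem1, Lbx1, Lin28a, Ptch1, Sox1, Sox2, Sox10, Tyms and Hox genes outside the first 6 of their list were named after their values were seen. Alternatives were other scalings, prior counts and filters, and leaving out each control. A few members of the lists are counted in their lists but not reported here by name.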

Additional observations from a re-analysis of the deposited data

Results flagged for a closer look

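In 8 of 150 genes, 1 control lay apart from the other 4 by more than 0.71 of the range of the 5 values. Chance alone flags about 1 in 20 groups, or 7.5 of 150, so the number flagged was close to that rate. The rate holds only for genes chosen without regard to these values. Some of the 150, Etv2 among them, were named because 1 control lay furthest from the others. Mest, an imprinted gene, was at 1354 CPM in control 1, and Tgif1, a TALE homeobox gene, at 172 CPM in control 3 against 139 to 146 in the others. Fgf10 was lowest in control 3, at 18.1 CPM against 21.9 to 23.6. The other 5 were in control 5. Etv2 was at 16.2 CPM and Twist1 at 72.7 CPM there, both the highest of the 5, while Gli1 at 2.65 CPM, Gnb1 at 3228 CPM and Tubb5 at 6798 CPM were the lowest.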

How the results depend on the processing

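The count of genes with an SD of log2 CPM over 1 depended most on the libraries and on the level required. It was 81 with all 5 controls, 53 without control 3 and 49 without control 5, a range of 49 to 114 over the 5 ways of leaving out 1 control, and 267 with a mean of at least 1 CPM. Other scalings and a prior count of 0.5 gave 83 to 85, and 75 remained in number without genes with a T run of 18 or more, an alternative chosen after seeing the data. The BCV of 18.7% ranged from 15.9% without control 5 to 20.6% without control 4, and was 22.3% with no filter on low counts. The number of genes at 1 CPM or more in all controls used stayed between 12070 and 12316. Of the 10 lists highest per kb, 9 were also among the 10 highest by CPM without division by length. No paired analysis was possible because only 1 group is described. Genes under 1 CPM, Shh among them, rest on few reads.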

Other observations

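The hypoxia and stress list, which has no place in the account above, was highest in control 5, where its summed CPM was 4567 against 2463 to 2981 in the other 4 controls. Ldha, the lactate dehydrogenase of glycolysis, made up most of it, at 2147, 2624, 2144, 2536 and 4202 CPM in controls 1 to 5. Of the 14 genes of the list at 1 CPM or more, 8 were highest in control 5, as were 29.5% of all genes at that level.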
